A study of Mus musculus with 16 samples.

Results

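Endothelial cells line every blood vessel of the kidney, from arteries and glomerular tufts to the capillaries around the tubules and the vessels of the medulla. They were chosen by measured values, namely their own transcripts in 4 single-cell RNA libraries of mouse kidney: a cell was counted as endothelial if Plvap, Emcn, Kdr, Flt1, Egfl7 and Eng together had at least 8 UMIs (unique molecular identifiers, each standing for 1 captured mRNA molecule) and the macrophage genes C1qa, C1qb and C1qc together at most 2. This gave 1787 of the 24975 cells that passed filters. Of these, 1590 had at least 1 Plvap UMI and 197 had none, and the 2 kinds are described apart. The mice carried either the wild type Gulo gene or the Gulo-/- genotype, both on the C57BL/6 strain, and each genotype had 2 single-cell libraries. The series holds 16 samples in 4 assays, with 2 samples of each genotype in each assay, and its design text sets the 2 genotypes against each other. The Gulo product, L-gulonolactone oxidase, completes the synthesis of ascorbate (vitamin C), so Gulo-/- mice depend on dietary ascorbate; their diet, age and sex are not given in the labels used here. Kidneys were cut up and mixed before being divided over the assays, and the labels do not tie the libraries to separate animals. The p-values therefore describe the spread among these libraries, which may be technical.

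Kidney endothelium is among the most varied of the body. Plvap forms the diaphragms that span the openings of fenestrated capillaries and of ascending vasa recta. Glomerular capillaries, arteries and the descending vasa recta of the medulla largely lack it. The descending vasa recta instead carry the urea transporter Slc14a1 and the water channel Aqp1, and arteries are known for the transcription factor Sox17 and the gap junction proteins Gja4 and Gja5. Interferons make endothelial cells, like most cells, transcribe antiviral genes, and interferon-gamma in addition raises the MHC molecules that present peptides to T cells.

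The libraries differed in more than genotype. Replicate 1 of each genotype held fewer UMIs in total (10208946 for wild type, 10073836 for Gulo-/-) than replicate 2 (61688164 and 88925323). It also held fewer kept cells, 1595 and 1877 against 7541 and 13962. Per endothelial cell the median was 3564 and 3371 UMIs in wild type replicates 1 and 2, against 2067.5 and 4718.5 in Gulo-/- replicates 1 and 2. Xist and Ddx3y counts gave 1 female and 1 male library per genotype: the female ones were wild type replicate 1 and Gulo-/- replicate 2. Gulo itself had 0 and 1 UMIs in the kept wild type cells, and 0 and 2 in the kept Gulo-/- cells, too few to check the genotype. Wild type replicates 1 and 2 shared 986 barcodes where 33.5 were expected by chance, and the 817 cells of replicate 2 with such a barcode, 44 of them endothelial, were removed. They held Xist in 209 cells and Ddx3y in 6. Of the 96 endothelial cells of wild type replicate 1, 46 also carried a shared barcode and were kept. Mitochondrial transcripts took a median of 24.9% of UMIs in the endothelial cells of wild type replicate 2, against 11.1% in wild type replicate 1, 11.1% in Gulo-/- replicate 1 and 9.85% in Gulo-/- replicate 2.

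The label was checked on 24 endothelial identity genes that had no part in the choice. Summed over endothelial cells they reached 20714 and 12698 CPM in wild type, against 13471 and 12201 in Gulo-/-, where CPM means UMIs of a gene per 1000000 UMIs of the summed cells. In all other kept cells the same genes summed to 261 and 664 CPM in wild type, against 696 and 1160.0 in Gulo-/-. In endothelial cells Pecam1, an adhesion protein of their junctions, was at 795 and 429.9 CPM in wild type, against 513 and 425 in Gulo-/-, and in the other cells of any library at 9.87 CPM or less. Cdh5, the endothelial cadherin, was there at 399 and 221 CPM in wild type, against 271 and 286 in Gulo-/-, and at 6.16 CPM or less elsewhere. In the authors' deposited table, the cluster named fEC has 238 marker genes, of which 236 were matched by symbol. All 236 were higher in the chosen cells than in the remaining cells of each of the 4 libraries, and 227 were at least 2-fold higher in each. That list was drawn from the same series and holds choosing genes such as Plvap, Emcn and Egfl7. Its outcome was thus largely fixed in advance and is no separate support for the label. Of the choosing genes themselves, which served to find the cells and are given as a description, Plvap was at 3225 and 2109 CPM in wild type, against 2935 and 1288 in Gulo-/- over all endothelial cells. Emcn, a sialomucin of capillary and venous surfaces, was at 3102 and 1942 CPM in wild type, against 1208 and 839.6 in Gulo-/-, Kdr at 785 and 669 CPM in wild type, against 537 and 252 in Gulo-/-, and Flt1, the VEGF receptor that acts as a decoy, at 974 and 743 CPM in wild type, against 1186 and 540.3 in Gulo-/-. Around the threshold, 24 cells of Gulo-/- replicate 1 and 92 of Gulo-/- replicate 2 had 8 or 9 UMIs of the 6 genes, and 62.5% and 67.4% of them had a Pecam1 UMI. Just below it, at 6 or 7 UMIs, lay 23 and 78 cells of the same libraries, of which 52.2% and 64.1% had one. In wild type these bins held 1 and 3 cells above the threshold and 1 and 4 below it.

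Endothelial cells were a larger part of both Gulo-/- libraries than of either wild type library. They numbered 96 of 1595 kept cells (6.02%) in wild type replicate 1 and 161 of 7541 (2.14%) in wild type replicate 2, against 338 of 1877 (18.0%) in Gulo-/- replicate 1 and 1192 of 13962 (8.54%) in Gulo-/- replicate 2. The groups did not overlap, with means of 4.08% ± 2.75 (SD, n = 2) and 13.3% ± 6.70 (SD, n = 2). Exact 95% intervals, which cover counting error only, were 4.90 to 7.30% and 1.82 to 2.49% in wild type, and 16.3 to 19.8% and 8.08 to 9.01% in Gulo-/-. The two-sided exact permutation test gave p = 0.333, the smallest that its 6 splits allow. The difference was 2.52 percentage points between the female libraries and 15.9 between the male ones. It was 11.99 between the replicate 1 libraries and 6.40 between the replicate 2 libraries. A share of cells also moves with the number of all other cells. The share of endothelial cells with a Plvap UMI was 93.8% in both wild type libraries (90 of 96 and 151 of 161 cells), 97.6% (330 of 338) in Gulo-/- replicate 1 and 85.5% (1019 of 1192) in Gulo-/- replicate 2. Here the Gulo-/- libraries lay on either side of the wild type ones, with means of 93.8% ± 0.0274 and 91.6% ± 8.59 (SD, n = 2 each; exact permutation p = 1). Without Gulo-/- replicate 2 the difference changed sign, from -2.21 to 3.86 percentage points. With each cell thinned to 1000 UMIs the means were 83.8% ± 0.810 and 74.0% ± 20.9 (SD, n = 2 each), a difference of -9.85 percentage points (exact permutation p = 1). Plvap also had a UMI in 2.64% of 946 and 3.40% of 5471 proximal tubule cells of wild type, and in 10.3% of 565 and 8.26% of 3038 of Gulo-/-, cells that should lack it and that had median depths of 4792.5, 6152, 4527 and 3757 UMIs. A single Plvap UMI was all that 2, 6, 5 and 100 of the Plvap-positive cells had, in the same order of libraries.

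**Figure D1:**
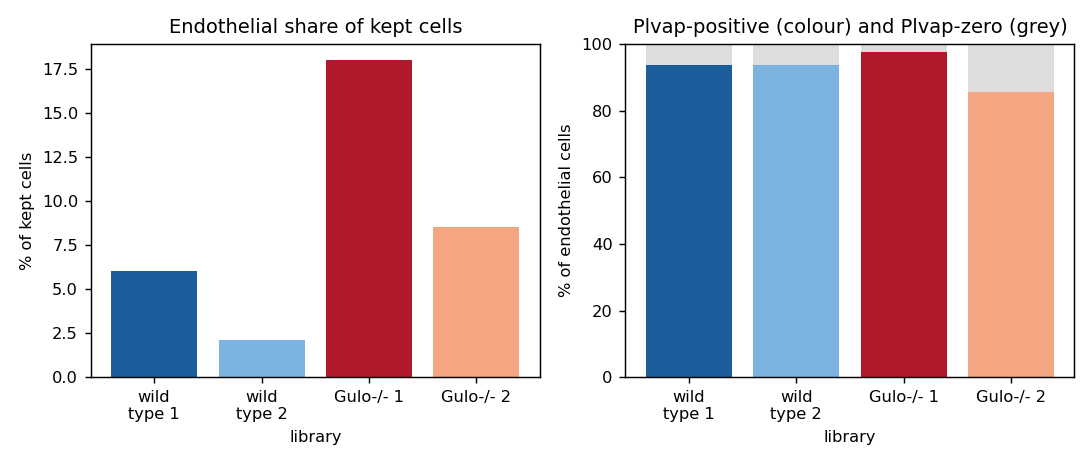
Endothelial cells in each single-cell library. The left panel gives endothelial cells as a percentage of kept cells, with both Gulo-/- libraries (18.0% and 8.54%) above both wild type libraries (6.02% and 2.14%); the right panel splits the endothelial cells of each library into Plvap-positive (coloured) and Plvap-zero (grey), and Gulo-/- replicate 2 has the largest grey part.

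Plvap-positive and Plvap-zero cells carried different vessel genes in all 4 libraries. These differences are given as descriptions with no test, since Plvap itself chose the cells, and the Plvap-zero sums rest on 6, 10, 8 and 173 cells. Rgcc, a cell cycle regulator of capillary endothelium, was at 1649 against 27.3, 1149 against 0, 2612 against 159.7 and 1006 against 49.9 CPM in Plvap-positive against Plvap-zero cells of wild type replicates 1 and 2 and Gulo-/- replicates 1 and 2. Also higher in Plvap-positive cells of every library were the growth factor Igf1, the cytokine Il33, the VEGF co-receptor Nrp2, the homeobox genes Irx3 and Irx5 and the natriuretic peptide receptor Npr3. Igf1 and Npr3 had 0 Plvap-zero UMIs outside Gulo-/- replicate 2. The rest of the 15 leading genes were Ptpru, Slfn2, Meox1, Thrsp, Ripply3, Ptgs1, Fabp5 and the collecting duct gene Hsd11b2. Collecting duct markers as a list were at 17.8 against 0, 180 against 59.1, 1296 against 160 and 3350 against 824 CPM, so the split did not concern vessel genes alone. In all, 312 of the 2796 genes compared were higher in Plvap-positive cells in all 4 libraries. The 2796 had a mean of at least 50 CPM in Plvap-positive cells, so they entered through the kind of cell where they could be high. The count is therefore a description only, with no expected share to set beside it.

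Of 2957 genes with a mean of at least 50 CPM in Plvap-zero cells, 466 were higher there in all 4 libraries. The genes again entered through the kind of cell where they could be high, so this count too is a description only. The leading genes included some known from other vessels. Ehd3, a membrane-trafficking protein known from glomerular endothelium, was at 183 against 955, 183 against 915, 90.5 against 616 and 67.4 against 348 CPM in Plvap-positive against Plvap-zero cells. Aqp1, the water channel of descending vasa recta, was at 199 against 1718, 964 against 2657, 1092 against 8462 and 2658 against 7235 CPM, and the tight junction gene Cldn5 at 86.6 against 1936, 239 against 1122, 160.3 against 707 and 543 against 2332 CPM. Mgp and Fbln5, matrix proteins of large vessels, the gap junction gene Gja5, the Notch target Hey1 and the plasminogen activator Plat were higher in the same direction. The rest of the 15 leading genes were Pi16, Smad6, Vim, Atp2a3, Fam107a, Htra1 and Timp2. The 10 genes of the descending vasa recta list had medians of 5.5, 4.5, 20 and 13 UMIs per Plvap-zero cell, after each cell was thinned to 1000 UMIs, and of 1, 1, 1 and 2 UMIs per Plvap-positive cell. No cell was below 1000 UMIs.

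**Figure D2:**
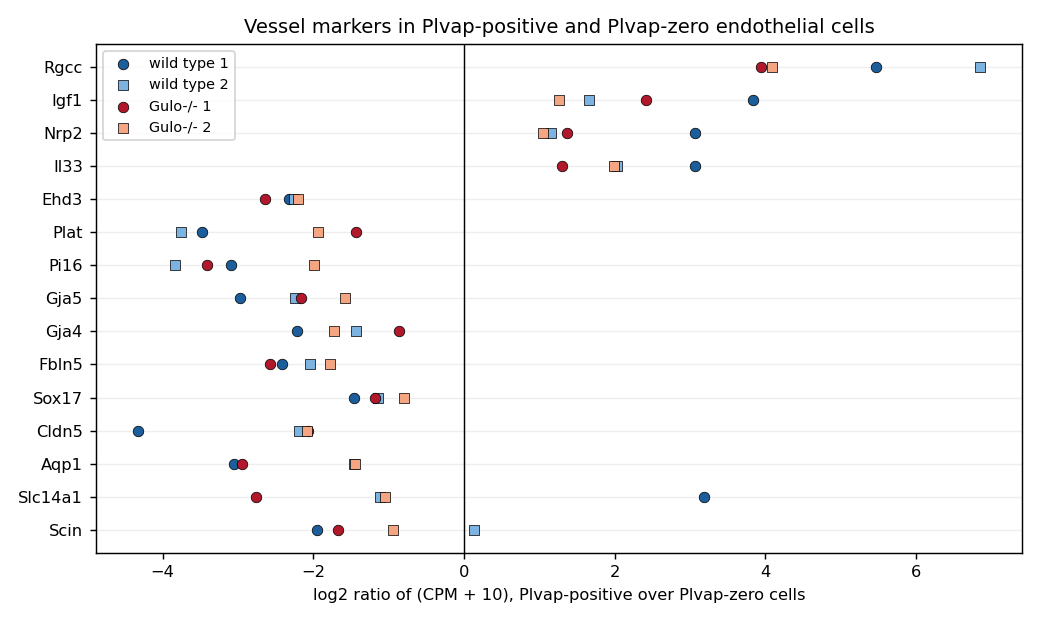
Log2 ratio of summed CPM (plus 10) in Plvap-positive over Plvap-zero endothelial cells, by gene and library. Points right of 0 are higher in Plvap-positive cells (Rgcc, Igf1, Nrp2, Il33) and points left of 0 in Plvap-zero cells (Ehd3, Cldn5, Aqp1, Gja5); Slc14a1 lies right of 0 in wild type replicate 1, whose 6 Plvap-zero cells had 0 Slc14a1 UMIs.

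The Plvap-zero cells were themselves mixed, which could be seen in Gulo-/- replicate 2, the library that held 173 of the 197. With groups and genes chosen after the values were seen, 41 of the 173 had an Ehd3 UMI, 93 had Slc14a1 or at least 3 Aqp1 UMIs, and 41 had none of Ehd3, Slc14a1, Gja5 and that much Aqp1. The 26 cells with Ehd3 and without Slc14a1 or Aqp1 had Plat at 2885 CPM (in 92.3% of cells), Pi16, a secreted protein of the CRISP family, at 688 CPM, and Kdr, the main VEGF receptor, at 1057 CPM. The 78 cells with Slc14a1 or Aqp1 and without Ehd3 had Cldn5 at 2709 CPM (94.9% of cells) and Sox17 at 1308 CPM. In the same 78 cells the actin-severing Scin was at 669 CPM and Kdr at 79.1 CPM. The 41 cells with none of the genes had Mgp at 5021 CPM, from 48.8% of the cells, Fbln5 at 683 CPM (90.2%) and Sox17 at 1313 CPM (92.7%). Kdr was among the choosing genes, whose summed UMIs decided which cells were counted as endothelial. The Kdr values are therefore a description only and do not by themselves separate kinds of Plvap-zero cell. In wild type replicates 1 and 2 and Gulo-/- replicate 1 the cells with Ehd3 numbered 3, 3 and 1, and those with Slc14a1 or at least 3 Aqp1 UMIs 2, 4 and 5. Transcripts of other cells were also found in the Plvap-zero sum of Gulo-/- replicate 2: red blood cell markers summed to 7619.6 CPM, smooth muscle and stromal markers to 1642 CPM and neutrophil markers to 1109 CPM. Renin (Ren1) alone gave 6241 CPM in the 26 cells with Ehd3, from 15.4% of those cells.

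Between genotypes, most genes called in Plvap-positive cells were lower in Gulo-/-, and 9 of them belonged to the interferon and MHC lists. Of 7929 genes tested, edgeR called 17 lower and 4 higher in Gulo-/- at an adjusted p under 0.05. Without the genes of the choosing rule that is 0.265% of genes, 0.215% lower and 0.0505% higher. At an unadjusted p under 0.05 there were 782 genes, where the share was 4.75% for lower and 5.11% for higher. Of the 17 lower genes, Zbp1, Ifi204, Ifi27l2a and Ifit1 belong to the list of interferon-stimulated genes, Cd74, H2-Aa, H2-Ab1 and H2-DMb1 to MHC class II, and H2-Q7 to MHC class I. The rest were Apol9a, Apol9b, AW112010, Pla2r1, Atp8a2, Dkk2, Gatm and 1 gene model without a name. The 4 higher genes were Acta2, Tagln, Apela and Hsd11b2. The number of calls rested on both wild type libraries: without wild type replicate 1 or without wild type replicate 2 edgeR called 0 genes, with 784 and 906 at an unadjusted p under 0.05, while 337 were called without Gulo-/- replicate 1 and 165 without Gulo-/- replicate 2. It also called 0 with a mitochondrial limit of 25% (599 at an unadjusted p under 0.05) and 0 with shared barcodes removed from both wild type libraries (684), a setting added after seeing the data. DESeq2 called 102 of the 7929 genes in Plvap-positive cells, 31 higher and 71 lower. The surplus of lower genes was not kept in every fit: without a filter on low counts edgeR called 241 higher and 205 lower, and without Gulo-/- replicate 2 it called 91 higher and 74 lower.

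**Figure D3:**
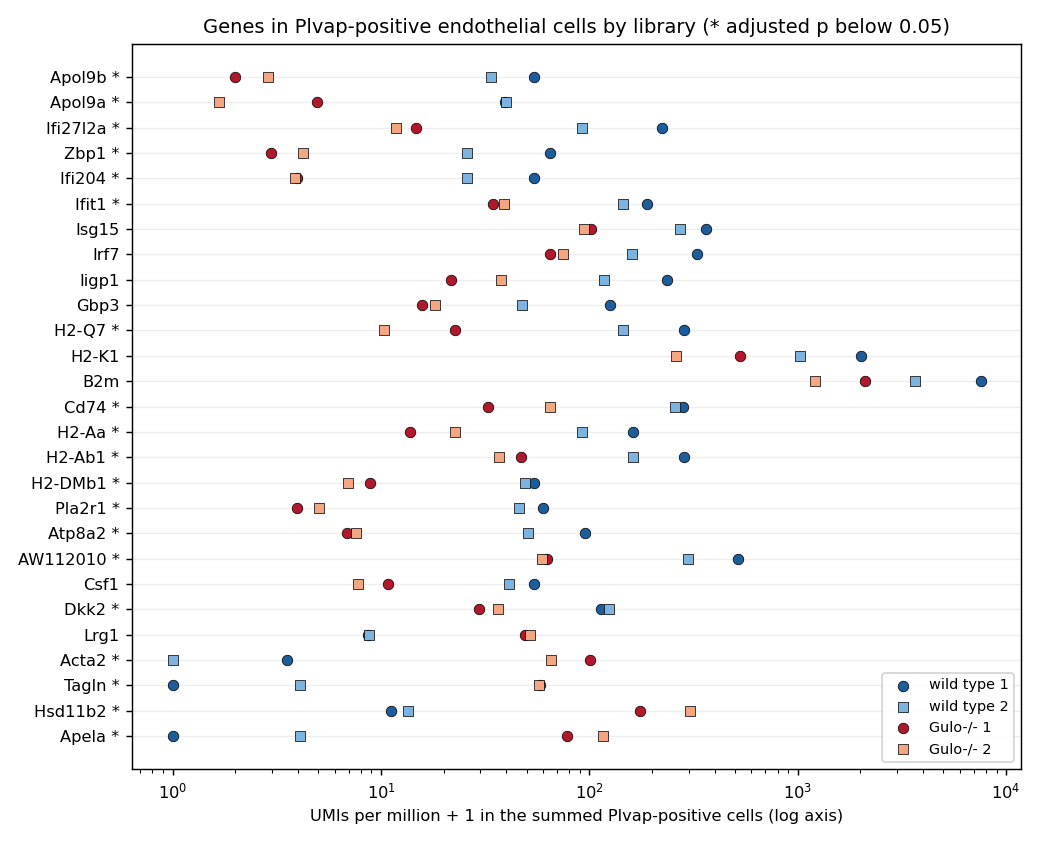
CPM plus 1 (log axis) of 27 genes in Plvap-positive endothelial cells of each library; an asterisk marks genes called by edgeR at an adjusted p under 0.05. Interferon and MHC genes such as Ifit1, Zbp1 and H2-Aa have both Gulo-/- points below both wild type points, and Acta2, Tagln, Apela and Hsd11b2 have them above.

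Nearly every gene of the interferon list was lower in both Gulo-/- libraries. Of its 37 genes, 36 were in the matrices and 35 were tested. All 35 had a negative log2 difference, where 48.2% of all genes did, 31 had an unadjusted p under 0.05, and edgeR called 4 (DESeq2 called 14). Over all genes, edgeR called 0.215% lower, and 4.75% had a lower value at an unadjusted p under 0.05. In 32 of the 35 both Gulo-/- libraries lay below both wild type libraries, against 11.6% of all genes. The median log2 difference was -1.58, beside 0.02 for all genes tested, and ranged from -1.76 to -1.33 over the alternative settings and left-out libraries. The 36 genes summed to 11449 and 6215 CPM in wild type, against 3695 and 3266 in Gulo-/-, so wild type replicate 1 was highest, wild type replicate 2 next, and the Gulo-/- libraries close together below both. In all other kept cells the same genes summed to 295 and 251 CPM in wild type, against 296 and 253 in Gulo-/-, where the genotypes overlapped.

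Single members spanned sensors, effectors and regulators. Ifit1, which binds viral RNA, fell and was at 189 and 144 CPM in wild type, against 33.4 and 37.9 in Gulo-/- (log2 difference -2.34 ± 0.28 (SE), edgeR adjusted p = 0.0406). Zbp1, a sensor of Z-form nucleic acid that can start necroptosis, was at 63.7 and 24.8 CPM in wild type, against 1.97 and 3.21 in Gulo-/- (log2 difference -3.98 ± 0.55 (SE), edgeR adjusted p = 0.0454). Ifi204, a DNA-binding protein of the HIN-200 family, was at 53.5 and 24.8 CPM in wild type, against 2.95 and 2.87 in Gulo-/- (log2 difference -3.83 ± 0.52 (SE), edgeR adjusted p = 0.0454). For each of these 3 genes the lower wild type value was several times the higher Gulo-/- value. Ifi27l2a, a small interferon-induced membrane protein, was at 222 and 91.6 CPM in wild type, against 13.8 and 10.8 in Gulo-/- (log2 difference -3.81 ± 0.45 (SE), edgeR adjusted p = 0.0406). Apol9a and Apol9b, apolipoprotein L genes known in mice as interferon-induced, fell as well: Apol9b was at 53.5 and 32.6 CPM in wild type, against 0.984 and 1.86 in Gulo-/- (log2 difference -4.76 ± 0.50 (SE), edgeR adjusted p = 0.0346). Apol9a was at 38.2 and 38.8 CPM in wild type, against 3.93 and 0.676 in Gulo-/- (log2 difference -4.99 ± 0.71 (SE), edgeR adjusted p = 0.0491), with only 4 UMIs left in each Gulo-/- library. Apol9a and Apol9b are near-identical copies, so reads may have been split between them and their separate values are uncertain. AW112010, an interferon-inducible transcript, was at 517 and 297 CPM in wild type, against 62.0 and 58.3 in Gulo-/- (log2 difference -2.87 ± 0.34 (SE), edgeR adjusted p = 0.0406). In every gene of this group both wild type libraries lay above both Gulo-/- libraries.

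Other members had the same ordering without passing the adjusted threshold. Isg15, a ubiquitin-like modifier, was at 362 and 270.2 CPM in wild type, against 101 and 93.5 in Gulo-/- (log2 difference -1.82 ± 0.29 (SE), edgeR adjusted p = 0.0643). Irf7, the transcription factor that amplifies type I interferon, was at 326 and 159.9 CPM in wild type, against 63.9 and 74.0 in Gulo-/- (log2 difference -1.91 ± 0.35 (SE), edgeR adjusted p = 0.0907). Bst2, also called tetherin, was at 1488 and 579 CPM in wild type, against 270.5 and 234 in Gulo-/- (log2 difference -2.13 ± 0.44 (SE)). The membrane protein Ifitm3 was at 4279 and 2235 CPM in wild type, against 1592 and 1348 in Gulo-/- (log2 difference -1.25 ± 0.38 (SE)). In both, wild type replicate 2 lay nearer to the Gulo-/- libraries than to wild type replicate 1. Rsad2, the antiviral enzyme viperin, was at 1345 and 790.4 CPM in wild type, against 565 and 571 in Gulo-/- (log2 difference -1.02 ± 0.33 (SE)). Of the 20 genes of the interferon-gamma list, 16 were tested and edgeR called 0 (DESeq2 called 7). Of the 16, 9 had a lower value at an unadjusted p under 0.05, as did 4.75% of all genes. All 16 differences were negative, where 48.2% of all genes had a negative one, and their median was -1.74. Among them the GTPases of the IRG and GBP families, which attack the vacuoles of intracellular parasites, had Igtp at 76.4 and 49.7 CPM in wild type, against 16.7 and 15.4 in Gulo-/- (log2 difference -2.10 ± 0.35 (SE), edgeR adjusted p = 0.0706), and Gbp3 at 125 and 46.6 CPM in wild type, against 14.8 and 17.2 in Gulo-/- (log2 difference -2.47 ± 0.45 (SE), edgeR adjusted p = 0.0907).

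The difference was seen in the typical cell. After thinning to 1000 UMIs, the median Plvap-positive cell had 11.5 and 6 UMIs of the interferon list in wild type, against 3.5 and 3 in Gulo-/-. Cells with 0 such UMIs made up 1.1% and 4.0% in wild type, against 8.5% and 8.9% in Gulo-/-. In proximal tubule cells the median was 0 in every library, and 85.7% to 89.2% of cells had none. In Plvap-zero cells the interferon list summed to 5891 and 4518 CPM in wild type, against 5497 and 2900.5 in Gulo-/-, where the genotypes overlapped; the wild type sums there rest on 6 and 10 cells.

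**Figure D4:**
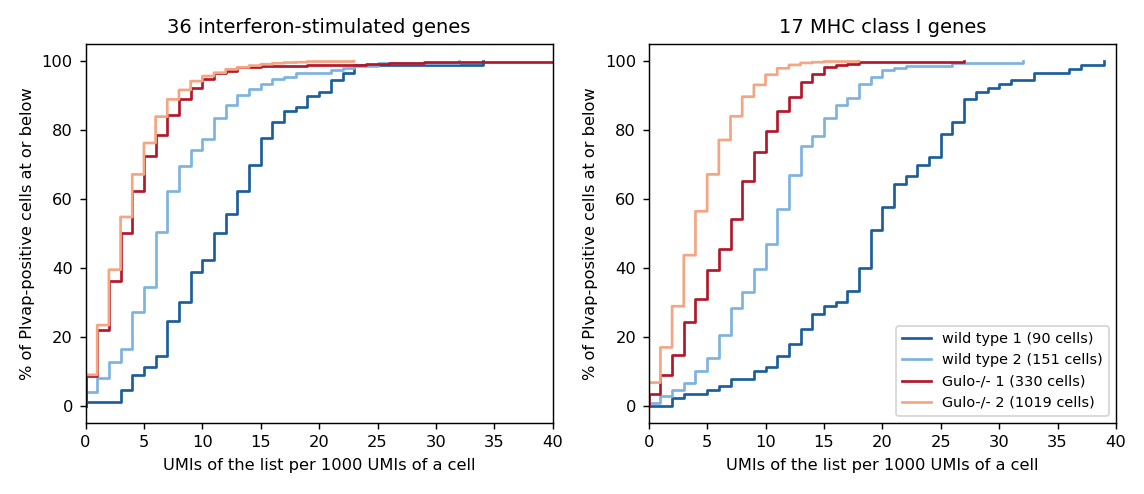
Cumulative percentage of Plvap-positive cells by UMIs of the 36 interferon genes (left) and the 17 MHC class I genes (right) per 1000 UMIs, one line per library. Both Gulo-/- lines lie left of both wild type lines over most of their length, and wild type replicate 1 lies farthest right, with medians of 11.5 interferon and 19 MHC class I UMIs.

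Promoters of 4 of the lower genes are shown because they hold letters known from interferon-driven and MHC genes. The interferon-stimulated response element was searched as GAAA, any 2 bases, GAAA, on both strands and with overlapping matches counted, in windows from 250 bases before to 50 bases after each annotated start (RefSeq, build GRCm38.p6). It was found in 3.99% of the 27025 genes with a window. Of the 17 genes called lower, 10 had a window and 3 held it: Ifit1, Apol9a and Apol9b. In the interferon list 14 of 27 genes with a window held it. The Y box of MHC promoters was searched as CTGATTGG on both strands and found in 4.70% of genes, and in H2-Aa and H2-Q7 among the genes called lower. The Y box was in 7 of 15 MHC class I genes and 2 of 6 MHC class II genes with a window. The 150 bases just before the annotated start are printed 5′ to 3′ on the strand of the gene, with the matches in capitals. They lie at chr19:34640739-34640888 (plus strand) for Ifit1, chr15:77728922-77729071 (plus strand) for Apol9b, chr17:34287824-34287973 (minus strand) for H2-Aa and chr17:35439005-35439154 (plus strand) for H2-Q7.
Ifit1: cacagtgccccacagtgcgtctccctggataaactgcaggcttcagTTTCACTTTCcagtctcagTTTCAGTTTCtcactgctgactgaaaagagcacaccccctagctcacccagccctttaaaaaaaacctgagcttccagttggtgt
Apol9b: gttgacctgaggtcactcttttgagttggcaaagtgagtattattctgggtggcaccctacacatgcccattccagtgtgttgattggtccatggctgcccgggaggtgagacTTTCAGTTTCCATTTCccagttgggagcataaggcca
H2-Aa: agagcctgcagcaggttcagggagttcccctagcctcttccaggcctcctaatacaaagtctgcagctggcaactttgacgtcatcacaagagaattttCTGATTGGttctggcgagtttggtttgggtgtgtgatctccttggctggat
H2-Q7: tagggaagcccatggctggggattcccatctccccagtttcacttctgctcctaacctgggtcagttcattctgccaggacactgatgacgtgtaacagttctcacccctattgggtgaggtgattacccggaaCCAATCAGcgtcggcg
In Ifit1 the 2 separate matches begin 104 and 85 bases before the start, and in Apol9b 2 overlapping matches begin 37 and 31 bases before it. The Y box begins 51 bases before the start in H2-Aa and 16 bases before it in H2-Q7. A match describes the letters of the window and does not show that a factor bound there.

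MHC class I molecules present peptides from within the cell, and nearly every gene of the list was lower in both Gulo-/- libraries. All 17 genes were in the matrices and 16 were tested: edgeR called 1 (DESeq2 called 8), 13 had a lower value with an unadjusted p under 0.05, and all 16 differences were negative with a median of -1.46 (range over settings -1.76 to -0.99). In 15 of the 16 both Gulo-/- libraries were below both wild type libraries, as they were for 11.6% of all genes. Over all genes, 48.2% had a negative difference and 4.75% a lower value at an unadjusted p under 0.05, and edgeR called 0.215% lower. H2-Q7, a class Ib heavy chain, fell and was at 283 and 144 CPM in wild type, against 21.6 and 9.29 in Gulo-/- (log2 difference -4.04 ± 0.53 (SE), edgeR adjusted p = 0.049). Its near-identical neighbour H2-Q6 was at 158 and 97.8 CPM in wild type, against 24.6 and 6.08 in Gulo-/- (log2 difference -3.44 ± 0.70 (SE), edgeR adjusted p = 0.172), and reads may have been split between them, so their separate values are uncertain. B2m, the light chain shared by all class I molecules, was at 7584 and 3673 CPM in wild type, against 2113 and 1206 in Gulo-/- (log2 difference -1.85 ± 0.46 (SE), edgeR adjusted p = 0.199). H2-K1, a classical heavy chain, was at 2003 and 1023 CPM in wild type, against 530.2 and 261 in Gulo-/- (log2 difference -2.02 ± 0.48 (SE), edgeR adjusted p = 0.184), and Tap1, which carries peptides into the endoplasmic reticulum, was at 99.4 and 45.0 CPM in wild type, against 18.7 and 21.8 in Gulo-/- (log2 difference -1.90 ± 0.39 (SE)). In B2m, H2-K1 and Tap1, wild type replicate 1 stood as far above wild type replicate 2 as wild type replicate 2 stood above the nearer Gulo-/- library, or farther. Summed over the list, Plvap-positive cells had 18455 and 9094 CPM in wild type, against 5748 and 3872 in Gulo-/-, and other kept cells had 1029 and 758 CPM in wild type, against 931 and 869 in Gulo-/-.

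MHC class II molecules present peptides taken up from outside and need the invariant chain Cd74, and the tested genes of this list were also lower in Gulo-/-. Of 9 genes, 5 passed the filter on low counts, edgeR called 4 of these (DESeq2 called 5) and all 5 differences were negative, with a median of -2.73. Over all genes tested, edgeR called 0.215% lower, DESeq2 called 71 of 7929 lower, and 48.2% had a negative difference. H2-Aa was at 161 and 91.6 CPM in wild type, against 12.8 and 21.6 in Gulo-/- (log2 difference -2.90 ± 0.36 (SE), edgeR adjusted p = 0.0414), and H2-Ab1, the beta chain of the same molecule, at 283 and 161 CPM in wild type, against 46.2 and 35.8 in Gulo-/- (log2 difference -2.56 ± 0.35 (SE), edgeR adjusted p = 0.0454). Cd74 fell and was at 280.3 and 256 CPM in wild type, against 31.5 and 63.5 in Gulo-/- (log2 difference -2.60 ± 0.36 (SE), edgeR adjusted p = 0.0454). So did H2-DMb1, a subunit of the peptide exchange factor, at 53.5 and 48.1 CPM in wild type, against 7.87 and 5.92 in Gulo-/- (log2 difference -3.10 ± 0.40 (SE), edgeR adjusted p = 0.0451). H2-Eb1 was at 109.6 and 49.7 CPM in wild type, against 10.8 and 13.9 in Gulo-/- (log2 difference -2.73 ± 0.41 (SE), edgeR adjusted p = 0.0532). Both Gulo-/- libraries lay below both wild type libraries for all 5, as they did for 11.6% of all genes. Summed over the list, Plvap-positive cells had 935 and 623 CPM in wild type, against 117 and 150.4 in Gulo-/-. The other kept cells had more, with 2329 and 1748 CPM in wild type, against 1346 and 619 in Gulo-/-. After thinning, 60.0% and 62.9% of wild type and 89.7% and 90.3% of Gulo-/- Plvap-positive cells had 0 class II UMIs, beside 91.9%, 79.9%, 94.3% and 93.0% of proximal tubule cells in the same order. Mean class II UMIs per thinned cell were 1.02, 0.695, 0.118 and 0.197 in Plvap-positive cells and 0.132, 0.721, 0.081 and 0.283 in proximal tubule cells, so 2 of the 4 endothelial means were below the level in proximal tubule cells of the same library. Markers of immune cells overlapped between genotypes in the Plvap-positive sums. The 6 macrophage markers other than C1q summed to 7.64 and 24.8 CPM in wild type, against 15.7 and 55.8 in Gulo-/-, the 8 dendritic cell markers to 38.2 and 12.4 CPM in wild type, against 57.0 and 26.2 in Gulo-/-, and the 5 B cell markers to 0 and 4.66 CPM in wild type, against 0.984 and 15.4 in Gulo-/-. Neutrophil markers summed to 0 and 41.9 CPM in wild type, against 7.87 and 215 in Gulo-/-, and in Gulo-/- replicate 2 this was above the class II sum. All 8 T and NK cell markers were at 0 in endothelial cells of 3 libraries, and 6, 7, 6 and 4 of the 8 dendritic markers were at 0. The part of free RNA in the class II values was not tested.

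The other lower genes had varied roles. Pla2r1, a receptor for secreted phospholipase A2, fell and was at 58.6 and 45.0 CPM in wild type, against 2.95 and 4.06 in Gulo-/- (log2 difference -3.91 ± 0.41 (SE), edgeR adjusted p = 0.0346). Atp8a2, a phospholipid flippase, was at 94.3 and 49.7 CPM in wild type, against 5.90 and 6.59 in Gulo-/- (log2 difference -3.60 ± 0.41 (SE), edgeR adjusted p = 0.0406), and Dkk2, a secreted modulator of Wnt signalling, at 112 and 123 CPM in wild type, against 28.5 and 35.3 in Gulo-/- (log2 difference -2.01 ± 0.29 (SE), edgeR adjusted p = 0.049). For these 3 genes both wild type libraries were above both Gulo-/- libraries. Dkk2 and Gatm lay beyond the number of genes set for naming and were added after their values were seen. Gatm, the first enzyme of creatine synthesis and abundant in proximal tubule, was at 336 and 290.4 CPM in wild type, against 69.8 and 92.4 in Gulo-/- (log2 difference -2.08 ± 0.29 (SE), edgeR adjusted p = 0.0454). In the other cells Gatm was at 2867 and 1269 CPM in wild type, against 251 and 205 in Gulo-/-, and in Plvap-positive cells proximal tubule markers summed to 3738 and 9542 CPM in wild type, against 3977 and 1908 in Gulo-/-. The part of tubule RNA in the Gatm difference was not tested.

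Of the angiogenic and tip cell list, 11 of 14 genes were tested and edgeR called 0 (DESeq2 called 2 lower and 1 higher), with 2 higher and 3 lower at an unadjusted p under 0.05 and a median of -0.38. Aplnr, the apelin receptor, was at 212 and 38.8 CPM in wild type, against 3.93 and 6.76 in Gulo-/- (log2 difference -4.44 ± 0.82 (SE), edgeR adjusted p = 0.137), and its ligand Apln at 28.0 and 17.1 CPM in wild type, against 4.92 and 1.69 in Gulo-/- (log2 difference -3.28 ± 0.71 (SE), edgeR adjusted p = 0.137). Aplnr in wild type replicate 1 was far above wild type replicate 2. Esm1, a proteoglycan induced by VEGF, was at 859 and 1141 CPM in wild type, against 338 and 231 in Gulo-/- (log2 difference -1.95 ± 0.38 (SE), edgeR adjusted p = 0.102). Lrg1, a secreted glycoprotein that modifies TGF-beta signalling, pointed the other way at 7.64 and 7.76 CPM in wild type, against 48.2 and 50.9 in Gulo-/- (log2 difference 2.52 ± 0.42 (SE), edgeR adjusted p = 0.0706). Csf1, the macrophage growth factor, was at 53.5 and 40.4 CPM in wild type, against 9.84 and 6.76 in Gulo-/- (log2 difference -2.72 ± 0.41 (SE), edgeR adjusted p = 0.0532).

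The 4 genes called higher are known mainly from cells other than endothelium. Acta2 and Tagln are contractile proteins of smooth muscle and pericytes. Acta2 had 1 and 0 UMIs in wild type, against 101 and 380 in Gulo-/-, and Tagln had 0 and 2 UMIs in wild type, against 58 and 333 in Gulo-/-. Acta2 was thus at 2.55 and 0 CPM in wild type, against 99.3 and 64.2 in Gulo-/- (log2 difference 6.15 ± 0.80 (SE), edgeR adjusted p = 0.0454); the ratio of pooled UMIs per total was 71.9-fold, with an exact 95% interval of 12.8 to 2845 that covers counting error only. Tagln was at 0 and 3.11 CPM in wild type, against 57.0 and 56.3 in Gulo-/- (log2 difference 4.70 ± 0.66 (SE), edgeR adjusted p = 0.049), a pooled ratio of 29.2-fold, with an exact 95% interval of 8.04 to 242 that covers counting error only. In Plvap-positive cells the markers of stromal and smooth muscle cells as a list, which includes both genes, summed to 17.8 and 7.76 CPM in wild type, against 256 and 226 in Gulo-/-. In other cells the list summed to 236 and 6.87 CPM in wild type, against 222 and 119 in Gulo-/-, where the genotypes overlapped. Acta2 alone had 12 and 40 UMIs there in wild type, against 405 and 1189 in Gulo-/-, in libraries of unlike total. In all endothelial cells 10, 8, 2 and 0 of its 12 genes were at 0 in the 4 libraries. Of the 12, 4 passed the filter on low counts, edgeR called 2 and DESeq2 3. Over all genes tested, edgeR called 0.0505% higher and DESeq2 called 31 of 7929 higher. With endothelial cells chosen by 0.2% of UMIs or more, neither Acta2 nor Tagln was called (edgeR adjusted p = 0.439 and 0.438).

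Apela, a ligand of the apelin receptor, had 0 and 2 UMIs in wild type, against 78 and 682 in Gulo-/-, or 0 and 3.11 CPM in wild type, against 76.7 and 115 in Gulo-/- (log2 difference 5.46 ± 0.64 (SE), edgeR adjusted p = 0.0406), a pooled ratio of 56.8-fold, with an exact 95% interval of 15.7 to 469.8 that covers counting error only. Hsd11b2, which inactivates corticosterone in the collecting duct, rose and was at 10.2 and 12.4 CPM in wild type, against 173 and 302 in Gulo-/- (log2 difference 4.21 ± 0.42 (SE), edgeR adjusted p = 0.0346). Both were higher in the other cells of Gulo-/- too: Apela was there at 29.5 and 23.8 CPM in wild type, against 235 and 233 in Gulo-/-, and Hsd11b2 at 105 and 88.3 CPM in wild type, against 563 and 659 in Gulo-/-. Collecting duct markers, Hsd11b2 among them, followed the same order: in Plvap-positive cells they summed to 17.8 and 180.1 CPM in wild type, against 1296 and 3349.9 in Gulo-/-. In other cells they summed to 323 and 647 CPM in wild type, against 4467 and 7208 in Gulo-/-. In Plvap-positive cells 8 of the 10 were tested, with a median log2 difference of 4.06, and edgeR called 1 and DESeq2 3. Of all genes tested, edgeR called 0.0505% higher and DESeq2 31 of 7929. Likely doublets were the cells with the highest doublet scores, in a number set beforehand by library size (0.8% of cells per 1000 cells). They made up 3, 19, 14 and 286 of the endothelial cells of the 4 libraries, or 3.1%, 11.8%, 4.1% and 24.0%. Among all kept cells they made up 1.3%, 7.1%, 1.5% and 11.2%. The part of RNA from other cells in these 4 genes was not tested. In a fit limited to the 5510 genes at least as high in endothelial as in other cells, chosen after seeing the data, edgeR called 11 genes higher and 62 lower. Genes entered that fit by their mean CPM over the 4 libraries, so a gene could enter through the genotype where it was high. The same values thus chose and tested the genes, and the calls are no separate support. Acta2 and Tagln were among the genes called there. Apela and Hsd11b2 had a higher mean in other cells and had no place in that fit. Of the 21 genes called above, 15 were called there, as were 18 of the interferon list, 7 of the interferon-gamma list, 6 of MHC class I and 1 of MHC class II.

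Few genes of the vessel-type lists passed a threshold. Of the arterial list edgeR and DESeq2 called 0 of 15 tested genes. Of the 15, 3 had a higher value at an unadjusted p under 0.05, as did 5.11% of all genes. Its differences were positive for 13, where 48.2% of all genes had a negative one, and the median was 0.80. That median ranged from 0.25 to 1.02 over settings and left-out libraries, and was lowest without Gulo-/- replicate 2. In Plvap-positive cells the list summed to 915 and 997 CPM in wild type, against 1121 and 2246 in Gulo-/-. In other cells the arterial list summed to 53.5 and 95.01 CPM in wild type, against 396 and 293 in Gulo-/-, so it was higher there in both Gulo-/- libraries. The descending vasa recta list had 10 of 10 positive differences, 4 with an unadjusted p under 0.05, 0 called by edgeR and 1 by DESeq2, a median of 1.10 and a range over settings of 0.53 to 1.43. In 6 of the 10 both Gulo-/- libraries were above both wild type libraries, as they were for 29.0% of all genes. In other cells the same list summed to 1459 and 942 CPM in wild type, against 2183 and 2155 in Gulo-/-, again higher in both Gulo-/- libraries. Slc14a1 was at 81.5 and 35.7 CPM in wild type, against 143 and 198 in Gulo-/- (log2 difference 1.47 ± 0.38 (SE)). Aqp1, known from proximal tubule as well, was at 199 and 964 CPM in wild type, against 1092 and 2658 in Gulo-/- (log2 difference 1.47 ± 0.86 (SE)). For Aqp1 wild type replicate 2 was close to Gulo-/- replicate 1. Aqp1 in other cells was at 108 and 87.1 CPM in wild type, against 379 and 313 in Gulo-/-, in each library below the Plvap-positive cells. Sox17 was at 222 and 234 CPM in wild type, against 237 and 648 in Gulo-/-, so only Gulo-/- replicate 2 stood apart. The peritubular and fenestrated capillary list had 8 of 9 negative differences, where 48.2% of all genes had a negative one. Of the 8, 2 had an unadjusted p under 0.05 and 1 was called by DESeq2, and the median of the list was -0.64. Within it Igfbp5, which binds insulin-like growth factors, was at 1896 and 1747 CPM in wild type, against 932 and 612 in Gulo-/-, and Npr3 at 43.3 and 119.6 CPM in wild type, against 27.5 and 15.9 in Gulo-/-. The 24 identity genes had a median of -0.28, with 1 higher and 2 lower at an unadjusted p under 0.05 and 0 called by either tool.

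Ascorbate is a cofactor of the dioxygenases that hydroxylate collagen, the HIF transcription factors, methylated DNA and histones, so these lists were examined as well. In these lists and the hypoxia list edgeR and DESeq2 each called 0 genes. Over all genes tested, 48.2% of differences were negative. At an unadjusted p under 0.05, 5.11% of all genes were higher and 4.75% lower in Gulo-/-. HIF and its hydroxylases had 1 higher and 1 lower gene at an unadjusted p under 0.05 of 7 tested, with a median of 0.08. For the TET, DNA methylation and Jumonji enzymes, 15 of 19 genes were tested, 13 differences were positive, 3 had an unadjusted p under 0.05 and the median was 0.55. The list summed to 303 and 222 CPM in wild type, against 414 and 439.9 in Gulo-/- in these cells. In other cells it summed to 114 and 138 CPM in wild type, against 264 and 337 in Gulo-/-, so both Gulo-/- libraries were higher there too. Tet2, which oxidises methylcytosine, was at 5.10 and 9.32 CPM in wild type, against 22.6 and 23.2 in Gulo-/-, and Kdm6b, which removes the repressive mark of histone H3 lysine 27, at 15.3 and 14.0 CPM in wild type, against 76.7 and 44.1 in Gulo-/- (log2 difference 1.88 ± 0.47 (SE), edgeR adjusted p = 0.192). For both the Gulo-/- libraries were above the wild type libraries, at levels that rest on few UMIs in wild type. The same order held in other cells, with Tet2 at 7.58 and 13.2 CPM in wild type, against 22.3 and 26.9 in Gulo-/-, and Kdm6b at 13.6 and 10.8 CPM in wild type, against 34.2 and 26.3 in Gulo-/-. The hypoxia list had 14 of 18 positive differences, 4 higher and 1 lower at an unadjusted p under 0.05, and a median of 0.42 (range over settings 0.30 to 0.66). Slc2a1, the glucose transporter of endothelium, was at 20.4 and 12.4 CPM in wild type, against 42.3 and 55.1 in Gulo-/- (log2 difference 1.49 ± 0.39 (SE)), and Ddit4, an mTOR inhibitor induced by stress, at 99.4 and 35.7 CPM in wild type, against 141 and 239 in Gulo-/-. Both were higher in other cells of Gulo-/- too, where Slc2a1 was at 7.09 and 9.17 CPM in wild type, against 42.1 and 71.2 in Gulo-/-, and Ddit4 at 8.801 and 7.47 CPM in wild type, against 51.5 and 59.8 in Gulo-/-. Collagen hydroxylation and folding genes had a median of -0.43 over 10 tested, with 1 higher and 0 lower at an unadjusted p under 0.05. There Serpinh1, the collagen chaperone, was at 734 and 177 CPM in wild type, against 214 and 172 in Gulo-/-, with wild type replicate 1 alone high, and P3h2, a prolyl 3-hydroxylase, was at 5.10 and 9.32 CPM in wild type, against 42.3 and 40.1 in Gulo-/- (log2 difference 2.27 ± 0.47 (SE), edgeR adjusted p = 0.126). P3h2 in other cells was at 32.0 and 21.0 CPM in wild type, against 66.2 and 86.8 in Gulo-/-, also higher in Gulo-/-. The part of RNA from other cells in these values was not tested. Slc23a2, which carries ascorbate into cells, was at 20.4 and 12.4 CPM in wild type, against 20.7 and 16.4 in Gulo-/-, with overlapping groups. Immediate early genes, which dissociation can induce, summed to 10659 and 2779.6 CPM in wild type, against 8725 and 9929 in Gulo-/-, so wild type replicate 2 stood apart as it did for mitochondrial transcripts. Their median of 0.59 ranged from -0.10 to 1.58 over settings and left-out libraries.

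**Figure D5:**
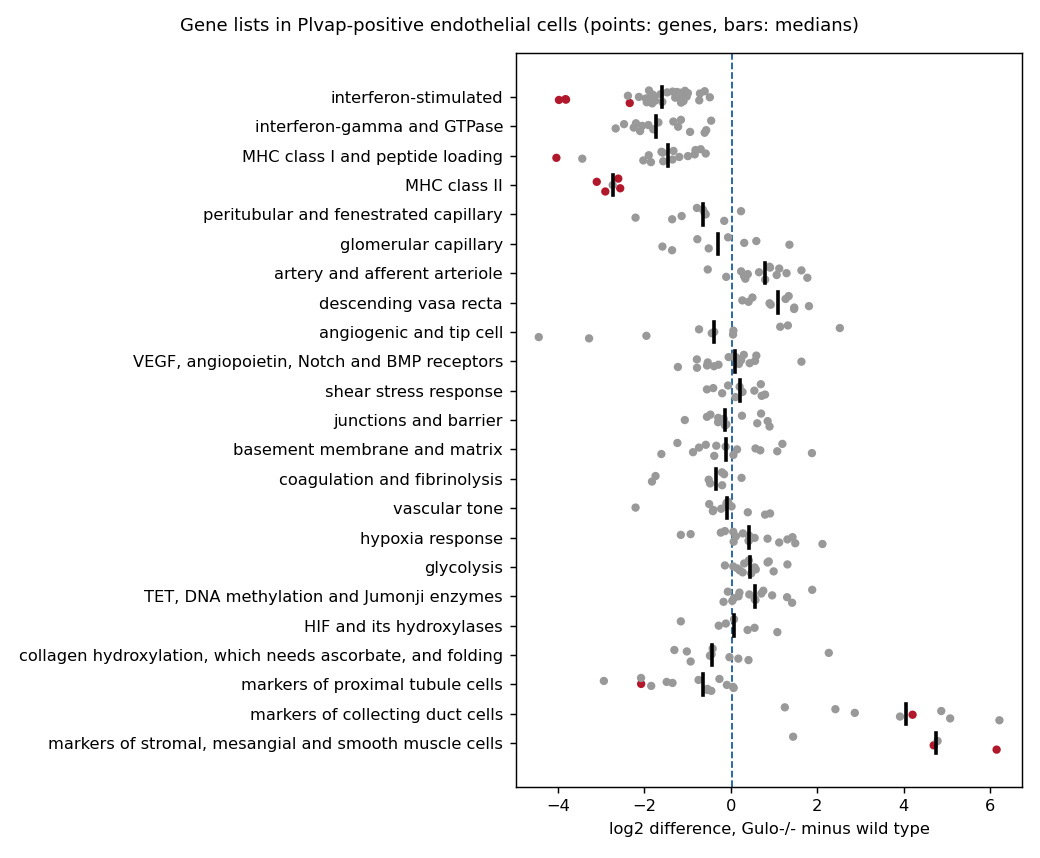
Log2 difference (Gulo-/- minus wild type) of every tested gene of 23 lists in Plvap-positive cells; red points are genes called by edgeR, black bars are list medians and the dashed line is the median of all genes tested (0.02). The interferon, interferon-gamma and MHC lists lie almost wholly left of the line, with medians of -1.46 to -2.73.

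When all 1787 endothelial cells were summed, 11 genes were called higher and 17 lower of 8174 tested (0.343% of genes, 0.135% higher and 0.208% lower, without the genes of the choosing rule), with 823 at an unadjusted p under 0.05. Of the calls, 19 were shared with Plvap-positive cells, 67.9% of the 28 and 90.5% of the 21. Added among the higher genes were further contractile genes. Rgs5, a pericyte regulator of G protein signalling, had 0 and 2 UMIs in wild type, against 106 and 492 in Gulo-/- (log2 difference 5.41 ± 0.69 (SE), edgeR adjusted p = 0.036). Myl9, a myosin light chain, had 2 and 0 UMIs in wild type, against 73 and 618 in Gulo-/- (log2 difference 5.27 ± 0.70 (SE), edgeR adjusted p = 0.0377), and Tpm2, a muscle tropomyosin, had 1 and 1 UMIs in wild type, against 34 and 238 in Gulo-/- (log2 difference 4.03 ± 0.59 (SE), edgeR adjusted p = 0.044). With so few wild type UMIs, the pooled ratios were 41.7 (exact 95% interval 11.5 to 345), 48.2 (13.3 to 399) and 18.97 (5.20 to 157). In all endothelial cells the stromal list summed to 16.3 and 8.43 CPM in wild type, against 287 and 465 in Gulo-/-, and its part in these calls was not tested. Aqp3, a water channel of collecting duct, was at 2.33 and 8.43 CPM in wild type, against 136 and 315 in Gulo-/- (log2 difference 5.06 ± 0.63 (SE), edgeR adjusted p = 0.0377), while other cells had 36.2 and 46.9 CPM in wild type, against 579 and 768 in Gulo-/-.

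The difference between genotypes was compared between Plvap-positive and Plvap-zero cells in 1 fit over the 8 sums, with the library as a term because both sums of a library share it. Of 7614 genes tested, 5 were called by edgeR (0.0657%, without the genes of the choosing rule), with 267 at an unadjusted p under 0.05, and all 5 had a more negative Gulo-/- minus wild type difference in Plvap-positive cells: Igfbp3, Esm1, Cd74, Hbb-bt and Ifit1. For Hbb-bt the call rests on 1 library, since 3 of the 4 Plvap-zero sums had 0 UMIs of it. In Plvap-positive cells Igfbp3, the main carrier of insulin-like growth factors, was at 1035 and 1471 CPM in wild type, against 1364 and 1126 in Gulo-/-, with overlapping groups. Among Plvap-zero cells Igfbp3 stood at 136 and 354 CPM in wild type, against 1346 and 1417 in Gulo-/-, so there both Gulo-/- libraries were above both wild type libraries (difference -2.68 ± 0.42 (SE) on the log2 scale, edgeR adjusted p = 2.14e-06 for the interaction). The Plvap-zero values rest on 5, 24, 59 and 1704 UMIs. In the Plvap-zero sums the descending vasa recta list was at 7446 and 7234 CPM in wild type, against 23152 and 16751 in Gulo-/-. The glomerular capillary list was at 4200 and 6909 CPM in wild type, against 1551 and 2061 in Gulo-/-. These sums may thus hold different vessels, and the part of this in the interaction was not tested. A test of genotype within Plvap-zero cells alone was not run, since 3 of the 4 libraries held fewer than 20 of them. The interaction rests on the same few cells.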

How the data were processed

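As deposited by the authors, each single-cell matrix held whole-number UMI counts, taken here without further scaling. Which program made these counts is not given in the sources used. The mouse build mm10 and the programs MACS2 2.1.2 and Seurat 2.3.4 appear in the submitters' processing notes. The authors' deposited table of marker genes gives, per cluster, a natural log ratio, a share of cells and a p-value with cells as units; only its gene names were used. The deposited methylation table and the bulk samples were not used here.

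Kept cells had 500 or more UMIs, 200 or more genes and no more than 50% mitochondrial UMIs, and cells of wild type replicate 2 with a barcode also in wild type replicate 1 were dropped. Doublets were not removed; an alternative left out the highest Scrublet scores (scanpy 1.11.5). UMI counts of the chosen cells were summed per library (429086 and 711707 in wild type, 1060518 and 7119996 in Gulo-/-) and compared with edgeR 4.0.16 in R 4.3.3 (TMM scaling, filterByExpr, quasi-likelihood F test, Benjamini-Hochberg adjustment over all genes tested, called under 0.05); cells are not replicates. The SE beside a log2 difference was derived from the test, as the absolute difference over the square root of the F statistic. It is only a rough guide where a genotype had almost no UMIs. DESeq2 1.42.0 was an alternative. Values per cell were thinned to 1000 UMIs. Shares were compared by an exact permutation test with 6 ways to assign the genotypes (scipy 1.17.1, Python 3.11.15). Plvap-zero cells were not tested alone, since that needed 20 cells in every library.

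The members and the gene lists were chosen with earlier results of these data known. Up to 12 called genes per direction in Plvap-positive cells, 8 in all endothelial cells and 6 for the interaction could be named, where both libraries of 1 genotype lay beyond both of the other; for the interaction the lowest p decided. The 15 genes per direction with the largest smallest ratio over the 4 libraries described Plvap-positive against Plvap-zero cells. Their mean had to be at least 50 CPM in the higher kind of cell. List members could be given whether called or not, and gene models were only counted. On simulated counts, edgeR recovered 36 of 89 genes changed by 1.5 and 91 of 93 changed by 3 on the log2 scale, with 10 false calls among 8137 genes, for Plvap-positive cells. The simulation used pooled means and 1 dispersion for all genes, without RNA from other cells or a changing mix of cells. Its figures therefore do not carry over to the real libraries.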

Additional observations from a re-analysis of the deposited data

Results flagged for a closer look

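For 5 genes edgeR called the interaction term, the change in the difference between genotypes from Plvap-zero to Plvap-positive cells, and for 1 of them, Hbb-bt, the call rests on a single library. Each value is the Gulo-/- minus wild type log2 difference in Plvap-positive cells minus that in Plvap-zero cells. Igfbp3 had a difference of -2.68 ± 0.42 (SE) on the log2 scale, edgeR adjusted p = 2.14e-06. Esm1 had a difference of -3.17 ± 0.62 (SE) on the log2 scale, edgeR adjusted p = 0.00107, where Plvap-positive cells had 859 and 1141 CPM in wild type, against 338 and 231 in Gulo-/-, and Plvap-zero cells had 81.8 and 59.1 CPM in wild type, against 137 and 131 in Gulo-/-. Cd74 had a difference of -3.92 ± 0.80 (SE) on the log2 scale, edgeR adjusted p = 0.00217, where Plvap-zero cells had 27.3 and 29.5 CPM in wild type, against 45.6 and 87.3 in Gulo-/-. Ifit1 had a difference of -3.97 ± 0.91 (SE) on the log2 scale, edgeR adjusted p = 0.0194, where Plvap-zero cells had 27.3 and 14.8 CPM in wild type, against 297 and 29.9 in Gulo-/-. Hbb-bt, a haemoglobin chain of red blood cells, had a fitted value of -10.82 ± 2.37 (SE) on the log2 scale, edgeR adjusted p = 0.00966. All of its Plvap-zero UMIs, 736, were in Gulo-/- replicate 2, and the other libraries had 0 there, so the fitted size depends on how a count of 0 is treated and is no measured fold. The Plvap-zero sums held 3, 4, 6 and 158 UMIs of Esm1, 1, 2, 2 and 105 UMIs of Cd74 and 1, 1, 13 and 36 UMIs of Ifit1 in wild type replicates 1 and 2 and Gulo-/- replicates 1 and 2. The part of a different mix of vessels among the Plvap-zero cells was not tested. Without wild type replicate 1, edgeR called 0 genes for the interaction, with 171 at an unadjusted p under 0.05; DESeq2 on all libraries also called 0, with 90 at an unadjusted p under 0.05.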

How the results depend on the processing

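The number of genes called, and the balance of higher and lower among them, depended on the processing. In all endothelial cells 28 genes were called by edgeR with the settings above. The number was 101 with DESeq2, 462 without a filter on low counts, 163 with sex as a block, 16 with a minimum of 5 UMIs of the 6 endothelial genes, 45 with these genes at 0.2% of UMIs or more, 54 without likely doublets, 51 with shared barcodes kept, and 0 with a mitochondrial limit of 25% (628 at an unadjusted p under 0.05). In Plvap-positive cells the 21 calls became 102 with DESeq2, 446 without the filter, 45 with sex as a block, 7 with a minimum of 12 UMIs, 48 at 0.2% of UMIs, 51 without likely doublets, 53 with shared barcodes kept, and 0 with the limit of 25%. For the interaction the 5 calls became 0 with DESeq2, 12 with RLE scaling, 3 without the filter, 3 with sex as a block, 10 and 18 with minimums of 5 and 12 UMIs, 21 at 0.2% of UMIs, 13 with no C1q UMI allowed, 16 without likely doublets and 16 with shared barcodes kept. Chosen after seeing the data, removal of shared barcodes from both wild type libraries left 0, 0 and 0 calls in the 3 comparisons (711, 684 and 146 at an unadjusted p under 0.05), with 50 endothelial cells in wild type replicate 1. A fit limited to genes at least as high in endothelial as in other cells, also chosen after seeing the data, called 62 in all endothelial and 73 in Plvap-positive cells. Leaving out 1 library at a time gave 0 to 147 calls in all endothelial cells, 0 to 337 in Plvap-positive cells and 0 to 9 for the interaction. The cause of these changes was not tested. The difference in endothelial share ranged from 4.46 to 13.9 percentage points when 1 library was left out, and that of the Plvap-positive share from -8.28 to 3.86.

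No label ties libraries with the same replicate number, although in each genotype replicate 1 had fewer UMIs in total than replicate 2. Deviations of same-numbered libraries had a correlation of 0.119 over 8174 genes. With a replicate block, edgeR called 318 genes in all endothelial cells, 309 in Plvap-positive cells and 11 for the interaction. Of these 169 were higher and 149 lower in all endothelial cells, and 161 higher and 148 lower in Plvap-positive cells. Higher genes also outnumbered lower ones in all endothelial cells without the filter (251 and 211), without Gulo-/- replicate 1 (75 and 72) and without Gulo-/- replicate 2 (32 and 22). The 24 named genes, in 37 results, gave 681 values over the alternatives. Of these, 494 kept their call, 187 kept the direction without the call, and 0 changed direction. The last count was largely fixed by the naming rule. Genes named between genotypes needed both libraries of 1 genotype beyond both of the other, so leaving out a library could hardly reverse them. Many other alternatives reused the same or nearly the same cells. Few cells (6, 10 and 8) limit the Plvap-zero sums of 3 libraries, and few UMIs limit genes such as Acta2 and Apol9a.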
